A study of Mus musculus with 9 samples.

Results

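Ribosome biogenesis factors are the proteins that build ribosomes without becoming part of them. The 35 genes described here were taken by name, and they cover RNA polymerase I, the small nucleolar ribonucleoproteins, the assembly factors of the small and large subunits, and nucleolar proteins with several tasks. A named probe was available for 34 of the 35, and fibrillarin (Fbl), the methyltransferase of the box C/D particles, is not analysed here. For each gene the probe with the highest mean over the 9 arrays was used. It had to read above 7.5 log2 units on at least 4 arrays, a level just above the bulk of dim probes, and 32 members met this among 8484 genes tested. Utp20 and Noc3l did not.

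The cells were LSK cells, marrow cells that lack lineage markers and carry Sca-1 and Kit, a fraction in which stem cells and early progenitors are found. Socs2-/- mice gave 4 arrays and wt mice 5. All donors were male C57BL/6 mice aged 12 weeks, and all had received 5-fluorouracil, a drug that kills cycling cells, at 150 µg/g 6 days before the marrow was taken, so no untreated cells enter any comparison. The deletion is not described as limited to any cell type, and the labels do not state whether an array holds cells of 1 mouse or of several. The p-values therefore cover only how these arrays vary, part of which may be technical.

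Ribosome production starts in the nucleolus, where RNA polymerase I transcribes the precursor of the large ribosomal RNAs. Small nucleolar ribonucleoproteins of the box C/D and box H/ACA types guide methylation and pseudouridylation of that precursor, and the U3 particle nucleates the processome that cleaves it for the small subunit. A separate set of factors assembles the large subunit. In blood stem cells the output of this pathway is kept low at rest and is raised when the cells enter division, and MYC, which binds the E-box sequence CACGTG, is a well known activator of its genes.

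Socs2, the deleted gene, read 6.80, 6.78, 6.58 and 6.70 on Socs2-/- arrays 1 to 4, against 9.59, 9.39, 10.36, 9.38 and 9.65 on wt arrays 1 to 5. Its difference of -2.96 (SE 0.34, limma adjusted p = 0.037) made it the 1 gene of 8484 (0.0118%) past the adjusted threshold of 0.05. That call was lost when any single array other than wt array 3 was left out. Socs2-/- arrays 1 and 2 had 31.1% and 31.0% of all probes above 7.5, compared with 34.8% to 35.1% on the other Socs2-/- arrays and 34.3% to 35.4% on wt arrays. Without these 2 arrays 11 of the 32 members changed sign, and many differences, though not all, are given with and without them. Of the LSK markers, 9 of 10 had a named probe, none of these stayed at or below 7.5 on all arrays, and the Sca-1 gene Ly6a is not analysed here. The mean level of those 9 was 8.96 to 10.09 on Socs2-/- arrays and 8.98 to 10.36 on wt arrays. This mean covers unlike genes, as 5 of the 9 lay below 0 and 4 above, from -1.40 (Slamf1) to 0.93 (Procr). On Socs2-/- array 2, Kit and Flt3 read 6.84 and 7.01, against 7.94 to 10.96 and 9.68 to 11.25 on wt arrays. Of the erythroid markers, 8 of 10 had a probe, and their mean level was 8.32 to 9.96 on Socs2-/- arrays against 8.01 to 8.70 on wt arrays, with Epor and Ermap at or below 7.5 throughout. Hba-a1 read 13.32, 10.41, 8.92 and 10.52 on Socs2-/- arrays, against 6.84 to 9.10 on wt arrays. Its difference of 3.37 (limma adjusted p = 0.232) was the highest of all 8484 genes. Hbb-bt and Hbb-b2, also tested, had 0.51 and 0.70. Without Socs2-/- arrays 1 and 2, 2 of these 3 genes lay below 0. Myeloid markers averaged 8.72 to 9.56 on Socs2-/- arrays and 8.81 to 9.81 on wt arrays, with Elane at or below 7.5 throughout. Of 7 tested, 5 lay below 0 and 2 above. Csf1r read 9.33, 8.94, 10.04 and 9.01 on Socs2-/- arrays, against 6.94 to 8.30 on wt arrays. It did not overlap between the genotypes (1.46, limma adjusted p = 0.318). The same held for 3.72% of all genes in either direction, and for 84 of 8484 with Socs2-/- higher. Mpo and Ctsg, both overlapping, went the other way at -1.58 each (limma adjusted p = 0.556 and 0.519). Lymphoid markers averaged 7.55 to 8.39 on Socs2-/- arrays and 7.37 to 8.25 on wt arrays, with Pax5 and Rag1 at or below 7.5 throughout. Megakaryocyte markers averaged 8.38 to 8.66 on Socs2-/- arrays and 8.35 to 9.25 on wt arrays, and mast cell and basophil markers averaged 7.16 to 8.43 on Socs2-/- arrays and 7.54 to 8.34 on wt arrays, with Ms4a2 at or below 7.5 throughout. Of 6 proliferation markers, 4 had a probe, and their mean level was 9.60 to 10.81 on Socs2-/- arrays against 10.69 to 11.05 on wt arrays. Among these, Ccna2 (cyclin A2) read 7.31, 6.85, 9.81 and 11.34 on Socs2-/- arrays, against 9.67 to 11.38 on wt arrays. Its difference was -1.92 (limma adjusted p = 0.489), with Socs2-/- arrays 1 and 2 below all wt arrays. The other probed proliferation markers had smaller differences, of 0.04 (Top2a), 0.15 (Pcna) and -0.42 (Mcm2). The part of these marker lists in the values below was not tested.

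The E-box was searched in promoters of 300 bases, from 250 before to 50 after the transcription start, as given by RefSeq on GRCm38.p6. Matches by symbol were found for 31 of the 35 members, and 7 of these (22.6%) held CACGTG, against 8.09% of 27025 genes. The 7 sites are shown because they are the only E-boxes in these member promoters. Each is written 5′ to 3′ on the gene's own strand with the E-box in capitals.

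Imp4, chr1:34439698-34439723, plus strand: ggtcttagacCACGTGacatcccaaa
Utp20, chr10:88826765-88826787, minus strand: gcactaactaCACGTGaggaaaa
Wdr43, chr17:71616222-71616247, plus strand: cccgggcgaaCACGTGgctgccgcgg
Tsr1, chr11:74898094-74898119, plus strand: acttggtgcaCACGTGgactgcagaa
Pes1, chr11:3963967-3963992, plus strand: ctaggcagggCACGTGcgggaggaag
Nop2, chr6:125131813-125131838, plus strand: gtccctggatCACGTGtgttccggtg
Mybbp1a, chr11:72441357-72441376, plus strand: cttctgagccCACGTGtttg

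The sites of Imp4 and Nop2 lay upstream of the start, with their first bases at -121 and -60. Those of Pes1, Wdr43, Tsr1, Utp20 and Mybbp1a began 3, 18, 25, 38 and 41 bases into the transcript, counting the start as 1. For Wdr43 the start used lies inside the gene's annotated span, which begins at chr17:71616178. Utp20 was below the filter. With their brightest probes the other 6 genes had differences between the genotypes from -0.38 (Wdr43) to 0.16 (Imp4), each smaller than its own SE. Their other probes above the filter had -0.70 (SE 0.66) for Imp4, -0.28 (SE 0.65) for Wdr43 and 0.11 (SE 0.63) for Nop2. For Mybbp1a they ran from -1.07 (SE 0.35) to 0.17 (SE 0.65). A match is a description of the letters only. Myc itself had a difference of -0.56 (limma adjusted p = 0.647), and Mycn and Max had 0.23 and -0.33.

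No member passed the threshold adjusted over all 8484 genes, which 0.0118% of the genes did. At an unadjusted limma p under 0.05 there were 3 members lower in Socs2-/- cells (Ppan, Nop58 and Gnl3) and 1 higher (Rrp9). Those 4 of 32 are 12.5% of the members, and 10.2% of all genes tested did the same, of which 7.87% were lower and 2.29% higher. With the brightest probe of each gene, the share is thus near the background. With the mean of all probes of a gene it was 7 of 32 members, against 835 of 7828 genes. The genotypes overlapped in all 32 members, while 3.72% of all genes had no overlap. The median difference was -0.07 log2 units over the members and -0.18 over all genes, and 18 of 32 members (56.2%) lay below 0, against 59.5% of all genes. With each array centred on its median, the medians became 0.11 over the members and 0.01 over all genes, so the sign of the member median depends on this scaling.

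**Figure D1:**
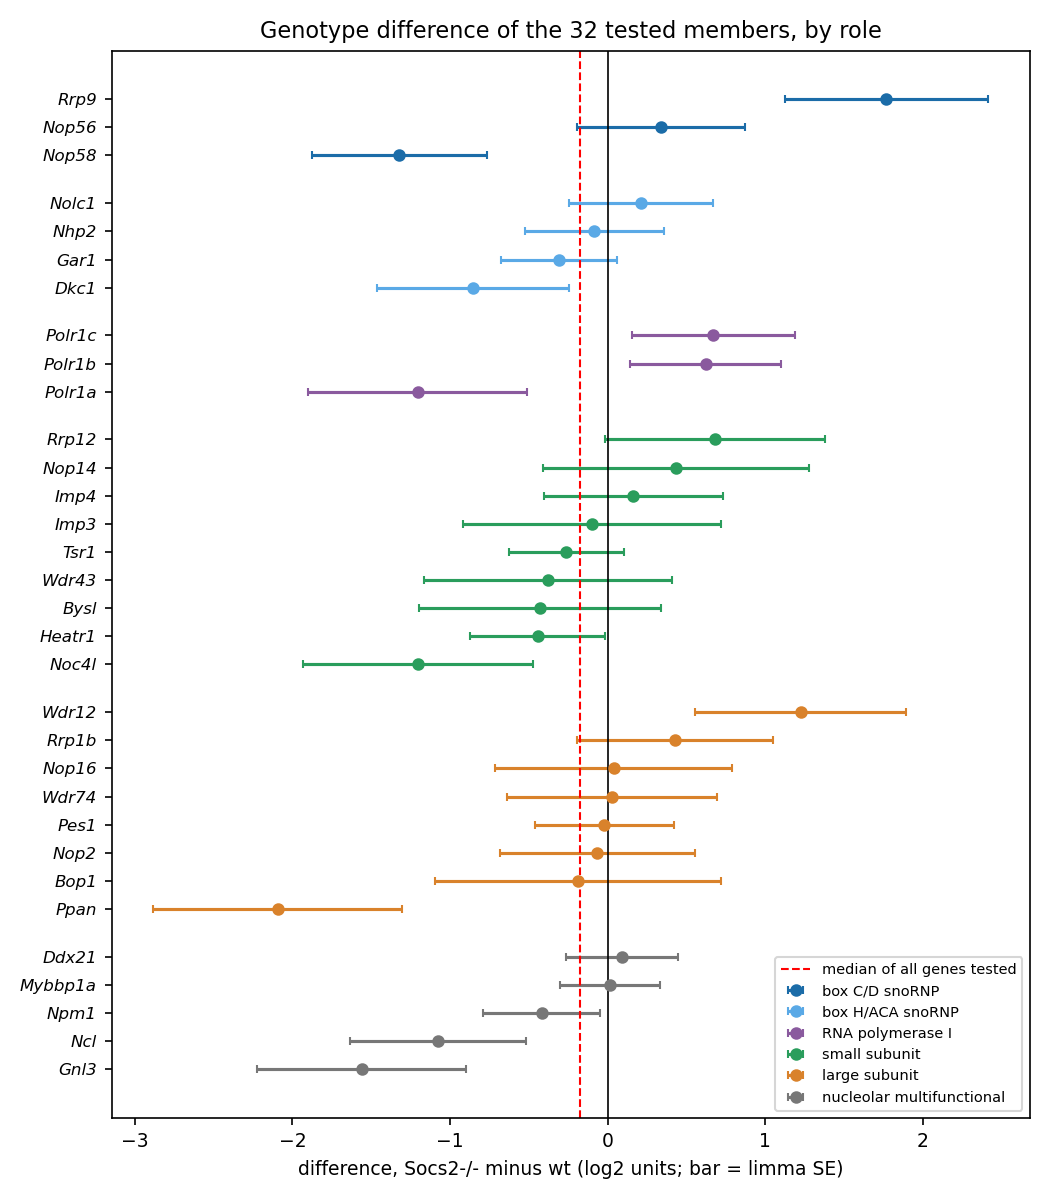
Difference between Socs2-/- and wt arrays for the 32 tested members, in log2 units with limma SE, grouped and coloured by role. Ppan at -2.09 and Rrp9 at 1.77 are the extremes, and the dashed line marks the median of all genes at -0.18.

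The box C/D members went in different directions. Rrp9, the protein that is specific to the U3 particle, read 10.45, 10.45, 11.34 and 9.33 on Socs2-/- arrays 1 to 4, against 10.37, 8.71, 7.42, 9.0 and 7.63 on wt arrays 1 to 5. Every Socs2-/- array was above every wt array except wt array 1, which lay above Socs2-/- array 4 alone. The means were 10.39 ± 0.82 in Socs2-/- cells (SD, n = 4) and 8.63 ± 1.18 in wt cells (SD, n = 5). The difference of 1.77 (SE 0.64, limma adjusted p = 0.426, exact permutation p = 0.0397) was the highest of the members. It was 1.71 without Socs2-/- arrays 1 and 2, and from 1.45 to 2.20 with any single array left out.

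Nop58, a core protein of the same particles, read 8.82, 9.73, 10.37 and 11.62 on Socs2-/- arrays 1 to 4. On wt arrays 1 to 5 it read 11.71, 11.56, 10.86, 12.10 and 11.06. Socs2-/- arrays 1, 2 and 3 lay below all wt arrays, and Socs2-/- array 4 lay within the wt range. Its difference was -1.32 (SE 0.56, limma adjusted p = 0.473, exact permutation p = 0.0635), or -0.46 without Socs2-/- arrays 1 and 2. Nop56, its partner in the core, read 10.42, 10.77, 9.80 and 9.58 on Socs2-/- arrays, against 10.19, 10.05, 8.12, 10.17 and 10.49 on wt arrays. Its values overlapped broadly, with a difference of 0.34 (SE 0.53) that became -0.08 without wt array 3.

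The promoters of Rrp9 and Nop58 are shown because these genes lay at opposite ends of the box C/D group. Only the 250 bases before the start are printed. For Nop58 the start used lies inside the gene's annotated span, which begins at chr1:59684961. Its last printed bases thus fall within that span. Capitals mark matches, on either strand, to 5 motifs that were searched. These were the E-box CACGTG, the ETS core CCGGAA, the CCAAT box CCAAT, the NRF1 motif (GCGCA followed at once by TGCGC) and the YY1 motif AAGATGGC.

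Rrp9 promoter, chr9:106477059-106477308, plus strand: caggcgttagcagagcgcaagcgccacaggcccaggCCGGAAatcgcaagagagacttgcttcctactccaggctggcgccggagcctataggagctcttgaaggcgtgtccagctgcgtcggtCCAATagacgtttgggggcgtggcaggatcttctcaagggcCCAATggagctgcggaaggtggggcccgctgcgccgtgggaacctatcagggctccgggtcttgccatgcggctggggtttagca

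Nop58 promoter, chr1:59684756-59685005, plus strand: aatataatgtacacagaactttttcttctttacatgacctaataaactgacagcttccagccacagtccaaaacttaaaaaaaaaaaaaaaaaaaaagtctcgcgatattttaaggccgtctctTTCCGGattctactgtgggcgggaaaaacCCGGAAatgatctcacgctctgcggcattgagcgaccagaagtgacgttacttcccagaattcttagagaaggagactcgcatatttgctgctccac

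Rrp9 had 1 ETS core and 2 CCAAT boxes in this stretch, and Nop58 had 2 ETS cores, with no base shared between matches. Over the full 300 bases an ETS core was found in 13 of 31 members (41.9%), against 16.7% of the 27025 genes with a promoter, tested or not. A CCAAT box was found in 9 (29.0%), against 41.1% of those genes. The YY1 motif was in 1 member, Imp4 (3.23%), against 3.19% of those genes, and the NRF1 motif was in 0 members, against 1.07%.

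The box H/ACA group comprised dyskerin (Dkc1), the pseudouridine synthase, its partners Gar1 and Nhp2, and Nolc1, a chaperone of these particles. Dkc1 read 9.19, 9.06, 10.19 and 12.06 on Socs2-/- arrays 1 to 4, against 10.19, 11.32, 11.22, 11.03 and 11.12 on wt arrays 1 to 5. Socs2-/- arrays 1 and 2 were below all wt arrays, array 3 was level with the lowest of them, and array 4 was above all of them. The difference of -0.85 (SE 0.61, limma adjusted p = 0.63) became 0.14 without Socs2-/- arrays 1 and 2. A second Dkc1 probe had -0.97, with a value of 9.09 on Socs2-/- array 1 and 6.74 to 6.89 on the other Socs2-/- arrays, against 7.40 to 9.41 on wt arrays. With that probe Socs2-/- arrays 2, 3 and 4 were below all wt arrays, and array 1 was within their range.

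Gar1 read 12.04, 12.36, 12.36 and 11.62 on Socs2-/- arrays, against 12.53, 12.94, 11.87, 12.56 and 12.10 on wt arrays. These values overlapped, with a difference of -0.31 (SE 0.37). Nhp2 and Nolc1 had differences of -0.08 (SE 0.44) and 0.21 (SE 0.46), both with overlapping values. None of the 4 had an unadjusted limma p under 0.05.

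RNA polymerase I was represented by its catalytic subunits Polr1a and Polr1b and by Polr1c, which it shares with RNA polymerase III. Polr1a read 7.34, 9.85, 9.27 and 11.20 on Socs2-/- arrays 1 to 4, against 11.13, 10.71, 10.95, 10.76 and 9.55 on wt arrays 1 to 5. Socs2-/- array 1 was at background and Socs2-/- array 4 was above all wt arrays. The difference was -1.20 (SE 0.69, limma adjusted p = 0.564), or -0.39 without Socs2-/- arrays 1 and 2. A second probe of Polr1a read 8.73, 7.49, 9.41 and 10.25 on Socs2-/- arrays, against 11.42, 10.18, 11.13, 11.02 and 10.19 on wt arrays, so that only Socs2-/- array 4 reached the wt range. That probe differed by -1.82 (SE 0.57, limma adjusted p = 0.361 over 13333 single probes, exact permutation p = 0.0238), or by -0.96 without Socs2-/- arrays 1 and 2.

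Polr1c read 11.07, 11.92, 11.70 and 10.75 on Socs2-/- arrays, against 11.64, 10.92, 9.28, 10.43 and 11.18 on wt arrays. It overlapped, with a difference of 0.67 (SE 0.52). Polr1b had 0.62 (SE 0.48), with 4 of 4 Socs2-/- arrays but only 2 of 5 wt arrays above 7.5, and 0.06 without Socs2-/- arrays 1 and 2. The 3 subunits therefore did not share a direction.

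**Figure D2:**
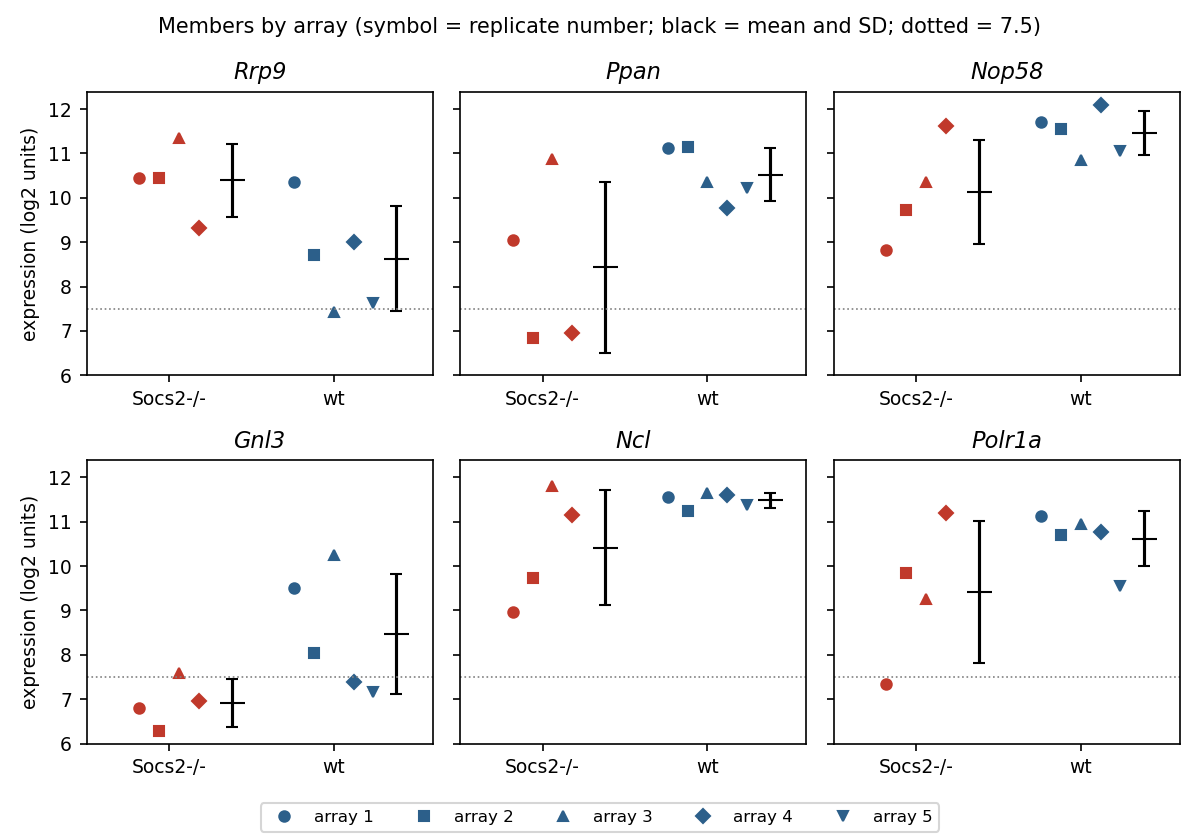
Values of 6 members on each array in log2 units, with Socs2-/- arrays in red, wt arrays in blue, the mean and SD in black and the 7.5 level dotted. Socs2-/- arrays 1 and 2 read lowest for Ncl, at 8.97 and 9.72, while Rrp9 was highest on Socs2-/- array 3, at 11.34.

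Factors of the small subunit had 9 tested members, of which 6 lay below 0 and none had an unadjusted limma p under 0.05. Noc4l, a partner of Nop14 in the processome, read 11.15, 7.71, 11.88 and 10.80 on Socs2-/- arrays 1 to 4, against 11.59, 11.52, 11.19, 11.81 and 11.81 on wt arrays 1 to 5. Socs2-/- arrays 1, 2 and 4 lay below all wt arrays, array 1 only just, and array 3 lay above them. Its difference of -1.20 (SE 0.73) rested mostly on Socs2-/- array 2 and was -0.31 without it. A second Noc4l probe had -0.76 (SE 0.61), or 0.08 without Socs2-/- arrays 1 and 2. Heatr1, a processome protein also needed for transcription by RNA polymerase I, read 10.49, 11.74, 11.22 and 12.32 on Socs2-/- arrays, against 12.28, 11.92, 11.73, 11.46 and 12.04 on wt arrays. These values overlapped, with a difference of -0.44 (SE 0.43), or -0.12 without Socs2-/- arrays 1 and 2.

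The U3-associated proteins Imp3 and Imp4 had differences of -0.10 and 0.16, and Nop14 had 0.43. Wdr43, of the subcomplex that links processing to transcription, had -0.38, and the late factors Bysl and Tsr1 had -0.43 and -0.26. Rrp12, which acts in export of the subunit, had 0.68. Their SEs were from 0.37 (Tsr1) to 0.84 (Nop14), so none of these differences was as large as its own SE. Without Socs2-/- arrays 1 and 2, Wdr43, Bysl and Nop14 changed sign, to 0.55, 0.23 and -0.09. Utp20, a large scaffold protein, read 6.81 to 6.86 on Socs2-/- arrays and 6.63 to 6.91 on wt arrays, at background in both.

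Among factors of the large subunit, Ppan, a nucleolar protein required for maturation of the large subunit RNA, was the lowest member. It read 9.05, 6.85, 10.88 and 6.95 on Socs2-/- arrays 1 to 4, against 11.12, 11.14, 10.37, 9.76 and 10.22 on wt arrays 1 to 5. Socs2-/- arrays 2 and 4 were at background, array 1 was below all wt arrays, and array 3 lay within the wt range. The means were 8.43 ± 1.92 in Socs2-/- cells (SD, n = 4) and 10.52 ± 0.60 in wt cells (SD, n = 5). The difference of -2.09 (SE 0.79, limma adjusted p = 0.435, exact permutation p = 0.0476) was -1.61 without Socs2-/- arrays 1 and 2. It ranged from -2.91 without Socs2-/- array 3 to -1.57 without Socs2-/- array 2.

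The second probe of Ppan ran the same way. It read 6.86, 6.75, 7.71 and 6.80 on Socs2-/- arrays, against 8.98, 9.10, 8.29, 8.74 and 7.47 on wt arrays. Only Socs2-/- array 3 exceeded a wt array, namely wt array 5. This probe differed by -1.49 (SE 0.45, limma adjusted p = 0.345 over single probes, exact permutation p = 0.0238), or by -1.26 without Socs2-/- arrays 1 and 2. Because 3 of 4 Socs2-/- values of this probe were at or below 7.5, its size is uncertain.

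The Ppan promoter is shown as that of the member with the lowest difference. It held none of the 5 motifs before the start, and 1 ETS core began 19 bases into the transcript.

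Ppan promoter, chr9:20887925-20888174, plus strand: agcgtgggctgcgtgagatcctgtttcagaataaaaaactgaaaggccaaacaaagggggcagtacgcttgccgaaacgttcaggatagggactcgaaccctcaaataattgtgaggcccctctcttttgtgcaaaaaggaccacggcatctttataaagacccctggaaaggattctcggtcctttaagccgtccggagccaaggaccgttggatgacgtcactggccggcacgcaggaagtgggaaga

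The PeBoW complex, which is needed for processing of the large subunit RNA, had no common direction in its 3 proteins. Pes1 and Bop1 had differences of -0.02 (SE 0.44) and -0.19 (SE 0.91), or 0.53 and 0.19 without Socs2-/- arrays 1 and 2. Wdr12 read 8.90, 10.71, 7.17 and 7.41 on Socs2-/- arrays, against 7.51, 7.69, 6.84, 7.35 and 7.21 on wt arrays. It was high on Socs2-/- arrays 1 and 2 alone, and its difference of 1.22 (SE 0.67) became -0.03 without them.

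Rrp1b read 9.38, 9.14, 9.85 and 10.69 on Socs2-/- arrays, against 8.16, 10.94, 10.07, 8.33 and 9.18 on wt arrays, with a difference of 0.43 (SE 0.62). All 4 of its probes above the filter lay above 0, from 0.13 to 0.43. Nop16 read 6.88, 6.78, 9.71 and 9.94 on Socs2-/- arrays, against 8.20, 9.12, 8.90, 7.95 and 7.27 on wt arrays, so that Socs2-/- arrays 1 and 2 were below and arrays 3 and 4 above all wt arrays. Its difference of 0.04 (SE 0.75) became 1.53 without Socs2-/- arrays 1 and 2 (limma adjusted p = 0.636), where 10.5% of all genes had genotypes that did not overlap, 4.87% with Socs2-/- higher. Nop2, a methyltransferase of the large subunit RNA, read 6.88, 7.13, 9.57 and 8.68 on Socs2-/- arrays, against 7.28 to 9.13 on wt arrays. Socs2-/- arrays 1 and 2 were below all wt arrays, array 3 above them and array 4 within their range, and its difference of -0.07 became 0.99 without Socs2-/- arrays 1 and 2. Wdr74 had 0.03 (SE 0.67), with 11.21 on Socs2-/- array 1 and 7.21 on Socs2-/- array 2.

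Noc3l was at or below 7.5 on all 4 Socs2-/- arrays, from 6.73 to 6.85, and read 8.36, 9.37, 7.38, 6.90 and 6.83 on wt arrays. It was not tested, 3 of the 5 wt arrays were at background too, and no fold is given.

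Nucleolar proteins with several tasks completed the list. Gnl3, or nucleostemin, a GTP-binding protein first described in stem cells, read 6.80, 6.29, 7.59 and 6.96 on Socs2-/- arrays 1 to 4, against 9.51, 8.03, 10.26, 7.39 and 7.16 on wt arrays 1 to 5. It was above 7.5 on 1 of 4 Socs2-/- arrays and 3 of 5 wt arrays, and wt arrays 4 and 5 lay within the Socs2-/- range. The means were 6.91 ± 0.54 in Socs2-/- cells (SD, n = 4) and 8.47 ± 1.36 in wt cells (SD, n = 5), and the difference was -1.56 (SE 0.66, limma adjusted p = 0.476, exact permutation p = 0.0794). It was -1.19 without Socs2-/- arrays 1 and 2 and -1.04 with every value below 7.5 set to 7.5. Its promoter, with 81.6% G and C in the 250 bases shown, held none of the 5 motifs.

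Gnl3 promoter, chr14:31019132-31019381, minus strand: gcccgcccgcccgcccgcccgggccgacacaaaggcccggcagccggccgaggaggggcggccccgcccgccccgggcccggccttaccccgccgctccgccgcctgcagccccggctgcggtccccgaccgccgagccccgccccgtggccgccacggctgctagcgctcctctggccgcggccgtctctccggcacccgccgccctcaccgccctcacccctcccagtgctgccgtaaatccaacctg

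Nucleolin (Ncl), an abundant RNA-binding protein of the nucleolus, was singled out after its values were seen. It read 8.97, 9.72, 11.81 and 11.16 on Socs2-/- arrays 1 to 4, against 11.56, 11.25, 11.65, 11.61 and 11.38 on wt arrays 1 to 5. The wt arrays lay within a narrow band, with Socs2-/- arrays 1 and 2 far below it, array 4 just below it and array 3 above it. Its difference of -1.08 (SE 0.56, limma adjusted p = 0.531) became -0.01 without Socs2-/- arrays 1 and 2. A second probe of Ncl read 8.60, 9.42, 11.57 and 10.78 on Socs2-/- arrays, against 11.60, 11.54, 11.70, 11.67 and 11.07 on wt arrays. Both probes therefore placed the low values on the same arrays, and the second differed by -1.42 (SE 0.57, limma adjusted p = 0.451 over single probes), or by -0.34 without those arrays.

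Nucleophosmin (Npm1), a histone chaperone that also takes part in subunit export, read 11.61, 11.55, 12.36 and 12.35 on Socs2-/- arrays, against 12.29, 12.72, 11.80, 12.52 and 12.60 on wt arrays (-0.42, SE 0.37). Its second probe had 0.24 (SE 0.36), so the probes had opposite signs. Without Socs2-/- arrays 1 and 2 the first and second probes had -0.03 and -0.04. The RNA helicase Ddx21 had 0.09 (SE 0.36).

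Mybbp1a, a nucleolar protein that binds MYB and acts in ribosomal RNA synthesis, read 12.04, 12.29, 12.30 and 12.01 on Socs2-/- arrays, against 12.26, 12.23, 11.76, 12.21 and 12.28 on wt arrays. These values overlapped, with a difference of 0.01 (SE 0.32). Another probe of Mybbp1a (ILMN_1251458), singled out after its values were seen, read 9.32, 9.12, 8.94 and 9.51 on Socs2-/- arrays, against 10.05, 10.36, 10.60, 10.14 and 10.31 on wt arrays. It did not overlap between the genotypes, and its spread was small, at 9.22 ± 0.25 in Socs2-/- cells (SD, n = 4) and 10.29 ± 0.21 in wt cells (SD, n = 5). It differed by -1.07 (SE 0.35, limma adjusted p = 0.378 over single probes), with an exact permutation p of 0.00794, the smallest this design can give, and by -1.07 without Socs2-/- arrays 1 and 2 as well. The 3 other probes of this gene above the filter had -0.83, 0.17 and -0.38 and overlapped. The part of the transcript that each probe reads was not examined.

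The probes of a member did not always run together. Of 14 members with several probes above the filter, 7 had all of them below 0 (Bop1, Dkc1, Ncl, Noc4l, Polr1a, Ppan and Wdr43), 1 had all above 0 (Rrp1b), and 6 had both signs (Ddx21, Heatr1, Imp4, Mybbp1a, Nop2 and Npm1). Of 53 member probes, 9 (17.0%) had an unadjusted limma p under 0.05, against 10.3% of all 13333 probes, and 0 passed the adjusted threshold. These were 8 lower in Socs2-/- cells (15.1%, against 8.07%) and 1 higher (1.89%, against 2.21%). Probes of 1 gene share its transcript and are not independent. The genotypes did not overlap in 3 of the 53 probes (5.66%), against 3.53% of all probes, and all 3 were lower in Socs2-/- cells (2.63% of all probes were). Besides the Mybbp1a probe, these were a probe of Heatr1 (ILMN_2733973) and a probe of Ddx21 (ILMN_2639272).

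The Heatr1 probe read 7.57, 7.32, 8.11 and 7.19 on Socs2-/- arrays, against 8.90, 8.76, 9.18, 8.26 and 9.01 on wt arrays. Its difference was -1.27 (SE 0.38, limma adjusted p = 0.332 over single probes), or -1.17 without Socs2-/- arrays 1 and 2, while another Heatr1 probe had 0.40 (SE 0.66). The Ddx21 probe read 11.16, 11.50, 11.78 and 11.75 on Socs2-/- arrays, against 11.85, 11.97, 11.81, 12.20 and 11.84 on wt arrays. The gap between the genotypes was narrow, with a difference of -0.39 (SE 0.35, limma adjusted p = 0.707 over single probes), or -0.17 without Socs2-/- arrays 1 and 2.

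**Figure D3:**
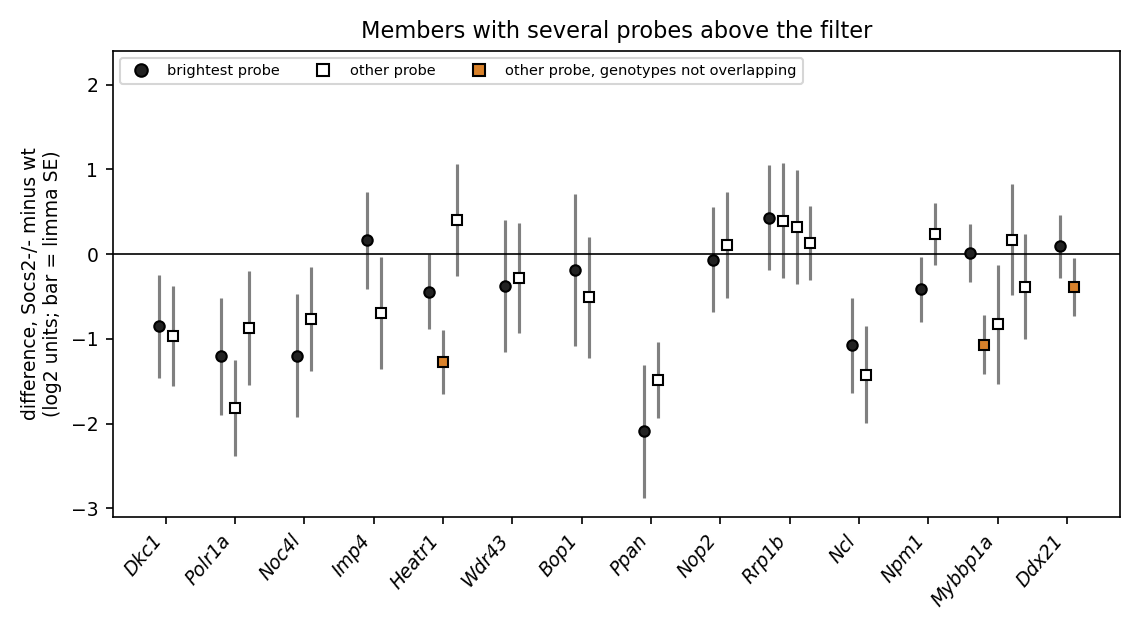
Difference between Socs2-/- and wt arrays for each probe of the 14 members with several probes above the filter, in log2 units with limma SE. Black circles are the brightest probes, squares the others, and orange squares are the 3 probes whose genotypes did not overlap, at -1.27 (Heatr1), -1.07 (Mybbp1a) and -0.39 (Ddx21).

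Spread across the arrays was uneven. The mean deviation of the 32 members from their own means was -0.53, -0.16, 0.38 and -0.06 on Socs2-/- arrays 1 to 4, against 0.09, 0.38, -0.05, -0.16 and 0.12 on wt arrays 1 to 5. For all genes tested the same mean was -0.25, -0.36, 0.13 and -0.01 on Socs2-/- arrays, against 0.04, 0.17, 0.03, 0.12 and 0.14 on wt arrays. Members less all genes gave -0.27, 0.20, 0.25 and -0.05 on Socs2-/- arrays 1 to 4, against 0.04, 0.21, -0.08, -0.28 and -0.03 on wt arrays 1 to 5. Gaps of this size in both directions were thus found in both genotypes. Of the 32 members, 8, 7, 1 and 4 were at or below 7.5 on Socs2-/- arrays 1 to 4, against 2 to 4 on wt arrays. Among all genes tested, 32.4% and 36.5% were at or below 7.5 on Socs2-/- arrays 1 and 2, 14.4% and 18.3% on Socs2-/- arrays 3 and 4, and 14.5% to 16.9% on wt arrays. The SD was larger among Socs2-/- arrays than among wt arrays in 20 of 32 members (62.5%), against 71.6% of all genes.

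**Figure D4:**
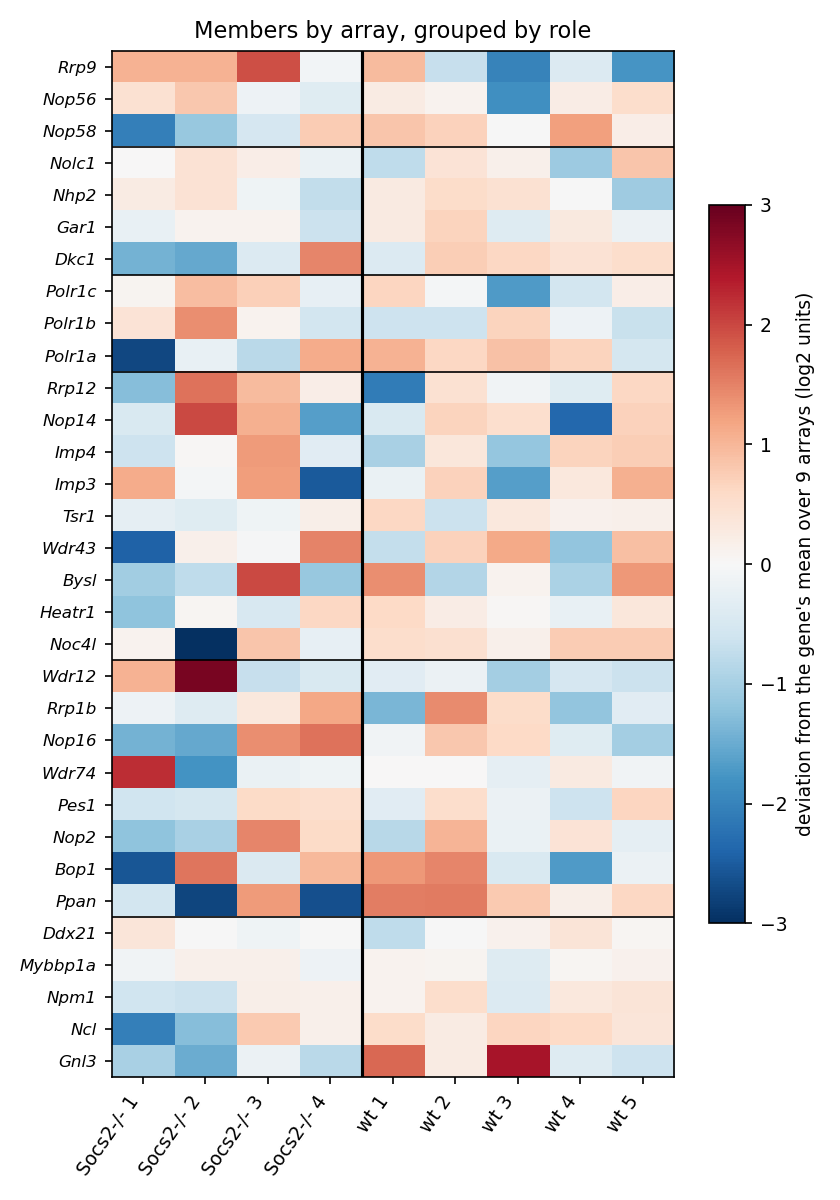
Deviation of each tested member from its mean over the 9 arrays, in log2 units, with members in rows by role and Socs2-/- arrays left of wt arrays. Low values on Socs2-/- array 1 are seen in Nop58, Polr1a, Bop1, Wdr43 and Ncl, and the members' mean deviation there was -0.53.

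After the mean of each genotype was removed, 24 of 32 members correlated above 0 with the mean of the other members over the 9 arrays. Pearson's r ran from 0.76 for Pes1, 0.71 for Nop2 and 0.66 for Ncl to -0.50 for Ddx21 and -0.52 for Wdr74. The 5 other genes whose pattern was most like the mean of the members were Med25 (0.94), Akna (0.94), Vps28 (0.93), Rsl24d1 (0.92) and Dnajb6 (0.92). Rsl24d1 is itself a large subunit factor from the list of other pathway genes. These are descriptions over 9 arrays that share the low-signal arrays, and the values carry no test.

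The rest of the pathway was read from 101 further genes of the same roles, of which 90 were tested. None passed the adjusted threshold in limma. An unadjusted limma p under 0.05 was reached by 9 lower genes (10%, against 7.87% of all genes) and 0 higher genes (against 2.29%). In either direction this was 10%, against 10.2% of all genes. The median difference was -0.21. Without Socs2-/- arrays 1 and 2 that median was -0.12. The 4 lowest by p were Nol6, Rrn3, Taf1d and Rrp15. Nol6, a processome protein, read 9.49, 7.27, 9.77 and 9.01 on Socs2-/- arrays, against 10.76, 11.33, 10.97, 10.06 and 10.24 on wt arrays. It was the 1 gene of the 90 without overlap between the genotypes, while 316 of all 8484 genes (3.72%) had none. Its difference was -1.79 (SE 0.54, limma adjusted p = 0.388), or -1.28 without Socs2-/- arrays 1 and 2.

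Rrn3 and Taf1d serve RNA polymerase I, Rrn3 by making it competent to start and Taf1d as a subunit of its promoter factor SL1. Rrn3 read 7.62, 6.73, 10.62 and 8.03 on Socs2-/- arrays, against 11.14, 9.89, 11.06, 10.85 and 9.63 on wt arrays, and only Socs2-/- array 3 reached the wt range. Taf1d read 10.04, 7.09, 9.54 and 8.64 on Socs2-/- arrays, against 11.10, 10.72, 10.64, 10.02 and 10.12 on wt arrays, where Socs2-/- array 1 lay just above the lowest wt value. Their differences were -2.27 (SE 0.73, limma adjusted p = 0.403) and -1.69 (SE 0.58, limma adjusted p = 0.413), or -1.20 and -1.43 without Socs2-/- arrays 1 and 2. Rrp15, a large subunit factor, had -1.63 (SE 0.67), or -0.31 without those arrays. On the higher side the smallest p belonged to the helicases Ddx54 (0.99) and Ddx24 (0.96), the SUMO protease Senp3 (0.99) and the nucleolar protein Nifk (0.77), with limma adjusted p from 0.496 to 0.576.

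Cytosolic ribosomal protein genes, the products that these factors assemble, are set beside them for scale. Of 52 tested, 9 lay below 0 (17.3%, against 59.5% of all genes) and 43 above. Their median was 0.14, and 0.33 with each array centred on its median. At an unadjusted limma p under 0.05 there was 1 lower (1.92%, against 7.87% of all genes) and 0 higher (against 2.29%). Their SDs were small, with a median of 0.22 among Socs2-/- arrays and 0.16 among wt arrays, compared with 1.01 and 0.64 for the biogenesis factors. The same medians over all genes tested were 1.01 and 0.70, so the spread of the biogenesis factors was close to that of all genes. No test of the difference between these lists was made.

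**Figure D5:**
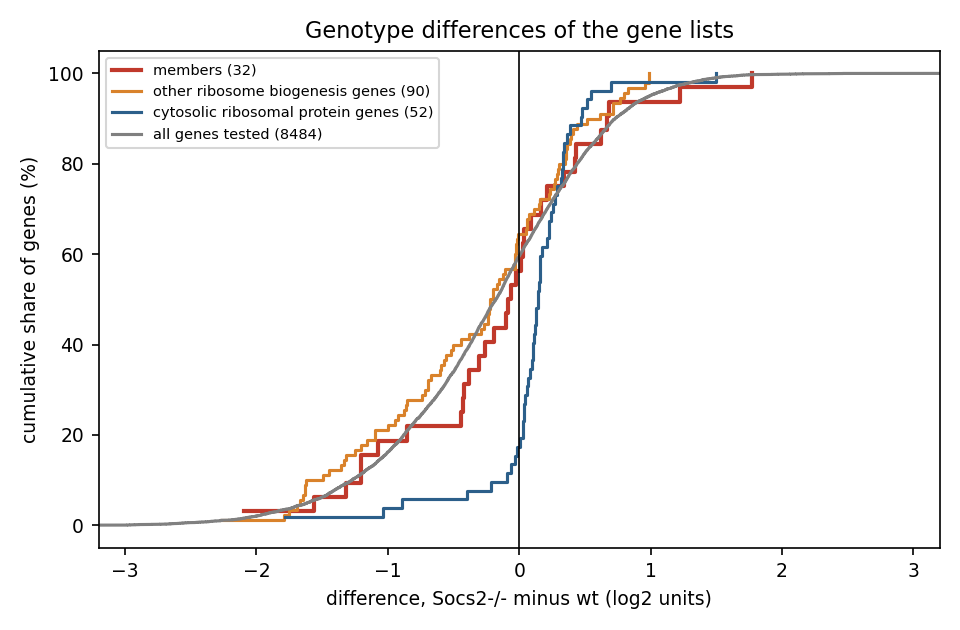
Cumulative share of genes (percent) against the difference between Socs2-/- and wt arrays (log2 units) for the 32 members, 90 other biogenesis genes, 52 cytosolic ribosomal protein genes and all 8484 genes tested. The members follow all genes closely, with medians of -0.07 and -0.18, while the ribosomal protein genes rise steeply around 0.14.

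The count of 4 members at an unadjusted limma p under 0.05, beside 862 of all 8484 genes, changed with the arrays used. It was 2 without Socs2-/- array 1 (714 of all genes), 1 without array 2 (664), 5 without array 3 (1234) and 5 without array 4 (1156). Leaving out wt arrays 1 to 5 in turn gave 2 (738), 3 (655), 3 (813), 3 (667) and 4 (672). Without Socs2-/- arrays 1 and 2 it was 1 (Nop16), where the background was 6.39%, of which 2.92% were higher. In bulk samples such as these, fewer cells of a type and less RNA per cell cannot be told apart.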

How the data were processed

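Gene expression of LSK cells was measured on Illumina mouse bead arrays. Per the labels' protocols, cells were sorted into Trizol, and amplification (NuGEN WT-Ovation Pico) started from 250 pg of RNA before biotin labelling. The authors deposited processed values, used here as log2 values. The submitters' processing notes name lumi, with no version, and name no background correction, transformation or normalization. If the transformation was variance stabilising, differences of dim genes are understated. A table of non-normalized values was not used, since no label ties its 18 columns of per-array values to a sample.

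Groups came from the sample titles. The platform annotation gave 1 gene symbol to 34885 of the 45281 probes, several to 18 and none to 10378. The probe with the highest mean stood for its gene, and a gene was tested when that probe read above 7.5 on at least 4 of 9 arrays. Genotypes were compared with limma 3.58.1 in R 4.3.3 (lmFit, then eBayes; two-sided p-values, adjusted by Benjamini-Hochberg across the genes tested). Single values also had an exact two-sided permutation test, the share of the 126 splits into 4 and 5 arrays with an absolute mean difference at least as large, whose smallest p is 0.00794. The number of arrays limits the precision.

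The members and gene lists were chosen with earlier results of these data known. Values by array are given for members with an unadjusted p under 0.05 and for the 2 brightest of each role, and other pathway genes were named by the 4 smallest p in each direction. Any other item with values by array was chosen after its values were seen. Alternatives covered filters, probe choice, scaling, variance models, the replicate block and arrays left out. Setting dim values to 7.5 and fitting single probes were chosen after seeing the data.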

Additional observations from a re-analysis of the deposited data

Results flagged for a closer look

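In 5 of 64 sets of values (32 members in each genotype), 1 array stood far from the others by Dixon's gap test, and chance alone marks about 1 set in 20. Bysl read 10.15 on Socs2-/- array 3, with the other Socs2-/- arrays at 7.40 or less. In wt cells, Nop56 read 8.12 on array 3 (the next value was 10.05), Mybbp1a 11.76 on array 3 (next 12.21), Dkc1 10.19 on array 1 (next 11.03) and Polr1a 9.55 on array 5 (next 10.71).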

How the results depend on the processing

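No member passed the adjusted threshold in limma in any of the 22 alternatives or among single probes. Between 1 and 7 members had an unadjusted limma p under 0.05 in those 22. Over all genes the count ran from 330 of 2874 to 1491 of 19057, and from 542 to 1234 where 8484 genes were fitted. The 7 of 32 came with the mean of all probes, where 835 of 7828 genes did the same. Of these members 6 were lower (Dkc1, Gnl3, Ncl, Nop58, Polr1a and Ppan) and 1 higher (Rrp9), against 647 lower and 188 higher genes. The smallest adjusted p of a member was 0.095, for Ppan without Socs2-/- array 3, and the next was 0.206, for Nop58 without Socs2-/- array 4. The member median of -0.07 stayed within 1 SD between arrays (0.22) in all 22, from -0.25 without Socs2-/- array 3 to 0.11 with centred arrays. It was above 0 also without Socs2-/- array 1 (0.02) and without wt array 2 (0.05). Nop58, Ppan, Gnl3 and Rrp9 kept their sign throughout, as did 15 of 32 members in all. In 687 comparisons of a member with an alternative, 69 changed sign and 7 moved by over 1 SD. Over the whole table, the count past the threshold was 1 in the fit reported, 2 with no filter, 3 with values above 7.5 on all 9 arrays, and from 0 to 7 with single arrays left out. It was 0 with the mean of all probes (835 genes at an unadjusted p under 0.05), the replicate block (627), the variance trend (954), centred arrays (782), dim values set to 7.5 (795) and single probes (1370), and without Socs2-/- arrays 1 and 2 (542). The cause of these changes was not tested. Deviations of arrays with the same replicate number correlated from -0.07 to 0.04, so no shared deviation was seen. Whether the numbers pair the arrays is not stated in the labels, and these correlations cannot settle it. With the replicate block 3 members had an unadjusted p under 0.05 and the member median was -0.14. Of the genes at an unadjusted p under 0.05, 77.5% were lower in Socs2-/- cells, and 60.0% with centred arrays, 62.7% above 7.5 on all 9 arrays, 61.7% with no filter and 54.2% without Socs2-/- arrays 1 and 2. A low signal limits what can be said of Bysl, Pes1, Wdr12, Polr1b, Nop2, Nop16 and Gnl3, each above 7.5 on 6 arrays or fewer.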
